A study of Mus musculus with 18 samples.

Results

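The interferon-inducible GTPases described here are 10 mouse genes taken by symbol from a list: the guanylate-binding proteins Gbp2, Gbp3, Gbp5, Gbp7 and Gbp9, and the immunity-related GTPases Igtp, Irgm1, Irgm2, Iigp1 and Ifi47. All 10 were found among the 55401 genes of each count file. They were measured by strand-specific RNA sequencing in 18 libraries, 6 groups of 3, from C57BL/6J macrophages. All 18 had been stimulated with LPS, the endotoxin of Gram-negative bacteria, for 6 h at 5 ng/ml, and no unstimulated group was among them. Peritoneal macrophages came from wild-type mice (WT) or SMIM30-Mut mice (Mut), without further treatment. Other Mut macrophages were infected 6 h after plating, either with a control adenovirus (Mut AdCtrl) or with 1 made to overexpress SMIM30 (Mut AdSmim30), and 24 h passed before the LPS was added; no WT cells with virus were among the groups. IC-21, an established transformed line of mouse peritoneal macrophages, was transfected for 24 h with control siRNA (IC-21 siCtrl) or siRNA to SMIM30 (IC-21 siSmim30). The labels give neither the mutated bases, the ages and numbers of mice, nor the insert of the virus. They do not say whether the 3 libraries of a group came from separate mice or cultures, so each p-value reflects the spread between these libraries alone, which may be technical.

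Interferon-inducible GTPases are made by macrophages and other cells after interferon reaches its receptor, and they defend the cell against pathogens that live in vacuoles or in the cytosol. Interferon gamma acts through receptor-bound kinases and induces genes with a short palindromic DNA site. Type I interferon, which LPS itself can induce, acts on a second kind of site, the interferon-stimulated response element. Guanylate-binding proteins assemble on pathogen membranes and promote their lysis and inflammasome activation. Among the immunity-related GTPases, Igtp, Irgm1 and Irgm2 are regulators that sit on the cell's own membranes, while Iigp1 and Ifi47 are effectors that load onto the vacuoles of pathogens.

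The stretches below lie upstream of the RefSeq start of 7 members and are shown because each holds a repeat of GAAA (TTTC on the other strand), in capitals; in Igtp and Irgm2 capitals also mark a palindrome that not all 7 have.
Gbp2: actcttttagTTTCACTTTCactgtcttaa
Gbp3: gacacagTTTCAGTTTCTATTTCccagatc
Gbp5: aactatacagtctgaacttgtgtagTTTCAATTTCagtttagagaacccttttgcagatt
Gbp7: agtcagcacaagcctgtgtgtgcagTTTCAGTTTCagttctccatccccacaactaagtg
Igtp: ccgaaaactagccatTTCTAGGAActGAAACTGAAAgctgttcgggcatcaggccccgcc
Irgm2: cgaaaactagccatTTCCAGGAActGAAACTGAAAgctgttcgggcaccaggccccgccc
Irgm1: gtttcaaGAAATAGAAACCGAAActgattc
They are written 5′ to 3′ along the gene, from the RefSeq table of build GRCm38.p6. The Gbp2 stretch is chr3:142620594-142620623, that of Gbp3 chr3:142559992-142560021, that of Gbp5 chr3:142496744-142496803 and that of Gbp7 chr3:142530258-142530317, all on the plus strand. The Igtp stretch is chr11:58199496-58199555 and that of Irgm2 chr11:58214888-58214947, both on the plus strand. That of Irgm1 is chr11:48871428-48871457 on the minus strand. The letters searched were GAAA, any 2 bases and again GAAA, on either strand, the core of the interferon-stimulated response element, and TTCNNNGAA, the palindrome of sites activated by interferon gamma, which reads the same on both strands. On the other strand the GAAA repeat reads TTTC, any 2 bases and TTTC. A window of 250 bases before the start was searched for 8 of the 10 members. Gbp9 and Iigp1 were not searched, so whether they hold either match is not known. The GAAA repeat was in 7 of the 8 windows, all but that of Ifi47, and in 2.98% of 32851 windows of that length over all genes. TTCNNNGAA was in 4 of the 8, those of Gbp5, Gbp7, Igtp and Irgm2, and in 7.02% of all windows. Those 4 held both, as did 0.332% of all windows. The member counts take the first window of each gene, while the shares over all genes take every window. A second window of Gbp3 held neither. In Igtp and Irgm2 both lay side by side, the palindrome before the other, and their windows were identical at 194 of 250 bases (77.6%), against 48.4 to 56.4% for the other pairs of members. Matches in Gbp3 and Irgm1 overlapped another match of the same letters. The Gbp2 and Irgm1 matches lie within an exon of a GENCODE M21 transcript that starts farther upstream. A match is a description of the sequence, not a measured site, and its absence says only that the letters are not in that window.

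In GRCm38, Gbp5 (142493978 to 142522344), Gbp7 (142530342 to 142550149), Gbp3 (142560026 to 142573209) and Gbp2 (142620602 to 142638008) follow each other on the plus strand of chromosome 3. Gbp9 (105077630 to 105139539) is on chromosome 5, minus strand. On chromosome 11 are Irgm1 (48861968 to 48871683, minus strand), Ifi47 (49076587 to 49096974, plus strand), Igtp (58199556 to 58207591, plus strand) and Irgm2 (58199618 to 58222782, plus strand). Iigp1 is on chromosome 18. Igtp and Irgm2 share 162 exonic bases, 8.01% of the exons of Igtp and 4.39% of those of Irgm2, and Gbp7 shares 11.3% of its exonic bases with the gene Gm43802. Read pairs in bases that belong to several genes, and pairs that align to several places, were left out of the counts, so the levels of members that share bases or have close relatives are uncertain and may be too low.

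Assigned read pairs per library ran from 6855245 to 13456857, and 3 counts, taken as the detection floor, were worth 0.223 to 0.438 CPM (counts scaled to each library's own total). That floor covers counting error only. Replicates of every group differed by more than sampling noise. The targeted gene Smim30, listed in the files as 2610001J05Rik, was at 44.3, 50.9 and 49.3 CPM in WT and at 42.3, 52.9 and 51.0 CPM in Mut, so its count neither bears out nor contradicts the Mut label. It was at 42.2 to 45.9 CPM in Mut AdCtrl, 51.6 to 55.1 in Mut AdSmim30, 20.02 to 22.5 in IC-21 siCtrl and 8.83 to 12.03 in IC-21 siSmim30. The macrophage markers Adgre1, Csf1r and Cd68 were present in all 18 libraries, with group means of 371 to 698, 570 to 914 and 775 to 2008 CPM. In IC-21 siCtrl against WT 6 of the 8 macrophage markers were lower (median log2 fold change -1.46), and all 8 summed to 2863 to 3020 CPM beside 11040 to 11760. Markers of large peritoneal macrophages summed to 370.2 to 403 CPM in WT and to 17.2 to 22.8 CPM in IC-21, where Gata6, Timd4 and Prg4 were at 0 counts.

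The 10 genes together took 2054 to 2253 CPM in WT, 2625 to 3573 in Mut, 446 to 512 across both virus groups and 48.7 to 55.5 in IC-21. Levels between genes are compared as CPM per kilobase of exon. On this scale Gbp2 was the highest member in all 6 groups, at 309.9 ± 16.5 in WT (SD, n = 3), and it lay above the next member in every WT library. Gbp5, which promotes inflammasome assembly, followed at 86.3 ± 2.68, then Gbp3 at 58.4 ± 5.05. Ifi47 at 42.9 ± 3.22 and Gbp7 at 41.2 ± 1.61 overlapped. Irgm1 at 28.7 ± 1.22 lay above Igtp at 20.1 ± 3.01 and Irgm2 at 19.3 ± 0.449, which overlapped each other. Gbp9 at 1.62 ± 0.286 and Iigp1 at 1.03 ± 0.232 were lowest. In Mut the order of the means was the same, but Gbp5 and Gbp3, Gbp3 and Ifi47, Irgm1 and Igtp, and Gbp9 and Iigp1 then also overlapped. IC-21 had another order: with siCtrl, Gbp2 at 3.64 ± 0.475 was followed by Irgm1 at 2.92 ± 0.279 and Ifi47 at 2.52 ± 0.22, which overlapped, and Gbp5, second in every primary group, was ninth at 0.4004 ± 0.0925.

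**Figure D1:**
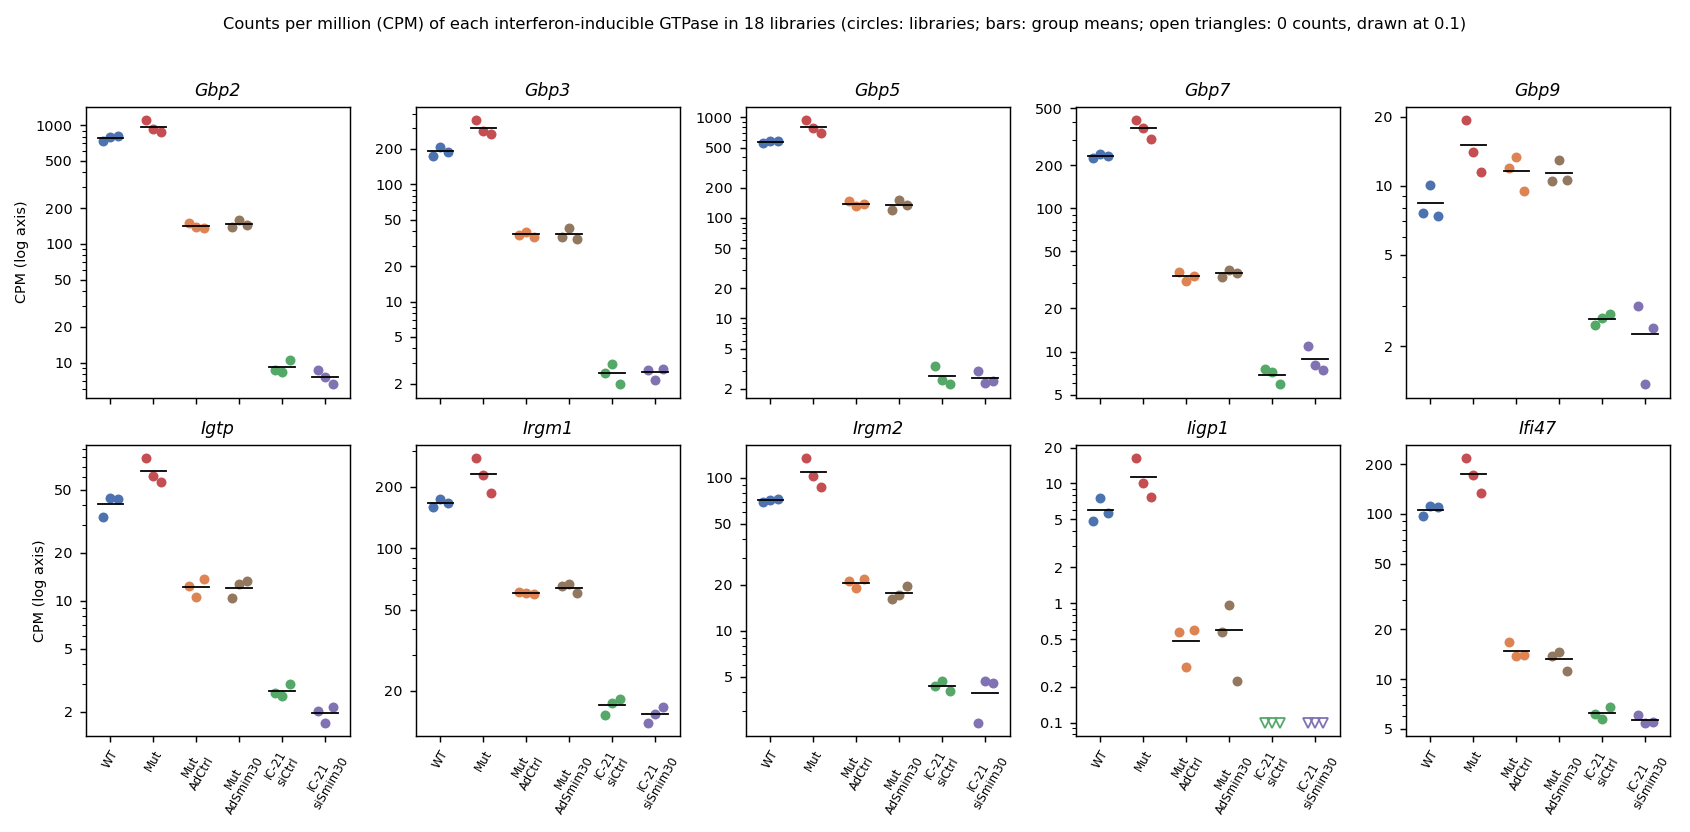
CPM of each GTPase in each of the 18 libraries on log axes, with bars at the group means; open triangles at 0.1 stand for 0 counts. All Mut points lie above all WT points in every panel, both virus groups overlap each other, and IC-21 is lowest in every panel.

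The comparison of Mut with WT macrophages asks which transcripts differ when Smim30 is mutated. Every one of the 10 GTPases lay higher in all 3 Mut libraries than in any WT library, by 1.24-fold to 1.85-fold, but only Gbp9 rose at an adjusted p under 0.05. The median log2 fold change of the 10 was 0.64, beside -0.0057 over the 12500 genes tested. Groups did not overlap, with Mut higher, for 12.8% of all genes tested, 6.3% passed the adjusted threshold in either direction and 3.68% rose (edgeR quasi-likelihood test, Benjamini-Hochberg over all genes). All 10 had an unadjusted p under 0.05, as did 18% of all genes. Relative to its standard error (SE), the log2 fold change of Gbp7 was larger than that of Gbp9. The robust fit gives each gene its own degrees of freedom, which enter the p-value. The single call therefore does not by itself set Gbp9 apart from the other members.

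Among the guanylate-binding proteins, Gbp9 was at 7.64, 10.1 and 7.41 CPM in WT and at 19.4, 14.1 and 11.5 CPM in Mut. Its rise was 1.76-fold (log2 0.82, SE 0.18, adjusted p = 0.0084). It rested on 72 to 86 counts per WT library, and it was lost without WT replicate 1 (adjusted p = 0.0647) or WT replicate 3 (0.0736), with a range of 4.15e-06 to 0.0736 over 15 alternatives. Gbp7, linked to oxidative defence, was at 222, 240 and 231 CPM in WT and at 415, 363 and 306 in Mut. All Mut values were higher, and the log2 fold change of 0.63 (SE 0.12) had an adjusted p = 0.055. Gbp7 passed in 7 of 15 alternatives, among them the replicate block (0.00731), DESeq2 (0.00014) and no composition factor (0.0419). Gbp3, which joins other guanylate-binding proteins on vacuoles, was at 175, 208 and 190 CPM in WT and at 354, 282 and 266 in Mut. Its log2 fold change was 0.65 (SE 0.15, adjusted p = 0.0979). Gbp5 was at 552, 585 and 581 CPM in WT and at 949, 793 and 694 in Mut, with a log2 fold change of 0.49 (SE 0.13, adjusted p = 0.137). Gbp2, which like Gbp5 carries a lipid anchor for membrane targeting, was at 732, 801 and 806 CPM in WT. In Mut it was at 1109, 930 and 876 CPM, a log2 fold change of 0.31 (SE 0.10, adjusted p = 0.166) that was the smallest of the 10.

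Of the 5 immunity-related GTPases 0 passed with edgeR or limma-voom, all 5 had an unadjusted p under 0.05, and DESeq2 called 4: Igtp (adjusted p = 0.0179), Irgm2 (0.0324), Iigp1 (0.0135) and Ifi47 (0.0242). The regulator Igtp was at 33.6, 44.5 and 43.8 CPM in WT and at 79.4, 61.2 and 56.3 in Mut, a log2 fold change of 0.67 (SE 0.19, adjusted p = 0.14). Irgm1, needed for resistance to several bacteria and linked to autophagy, was at 160, 174 and 166 CPM in WT and at 277, 229.9 and 186 in Mut. The gap between the highest WT and the lowest Mut library was small for Irgm1, and its log2 fold change was 0.46 (SE 0.17, adjusted p = 0.278). Irgm2 was at 69.7, 71.3 and 73.0 CPM in WT and at 135, 103 and 87.6 in Mut, with a log2 fold change of 0.58 (SE 0.19, adjusted p = 0.206). The effector Iigp1 was at 4.88, 7.50 and 5.63 CPM in WT and at 16.4, 10.1 and 7.76 in Mut. Its log2 fold change of 0.89 (SE 0.30, adjusted p = 0.149) was the largest of the 10 and rested on 46 to 64 counts per WT library. Ifi47 was at 97.0, 111 and 110.6 CPM in WT and at 218, 172 and 133 in Mut, with a log2 fold change of 0.70 (SE 0.22, adjusted p = 0.212).

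The spread among the Mut libraries was shared by the members. Mut replicate 1 was the highest and Mut replicate 3 the lowest for all 10, and WT replicate 1 was the lowest WT library for 9, all but Gbp9. Fewer cells of a responding type and less RNA per cell cannot be told apart in these bulk libraries. How many members passed changed with the libraries and the tool: 8 without Mut replicate 1, 9 without Mut replicate 3, 0 without WT replicate 1 and 0 without WT replicate 3. It was 8 with DESeq2, 8 with no filter on low counts and 10 in a fit of all 18 libraries, with all 10 log2 fold changes positive in each. Ribosomal RNA genes took 1.74 to 2.49% of the counts of WT libraries and 0.399 to 1.03% of those of Mut, and the count of members called was 1 also without those genes. Markers of large peritoneal macrophages (6 genes) summed to 370.2 to 403 CPM in WT and 284 to 299 in Mut, B cell markers (6 genes) to 72.9 to 79.6 and 51.9 to 57.2, and dendritic cell markers (6 genes) to 5.71 to 6.47 and 8.43 to 13.4. Cd93 alone made up most of the large peritoneal macrophage sum in Mut. Of the 5 tested markers of that list 2 passed as lower and 0 as higher. No gene of these 3 lists was at 0 in either group, and their part in the result was not tested.

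**Figure D2:**
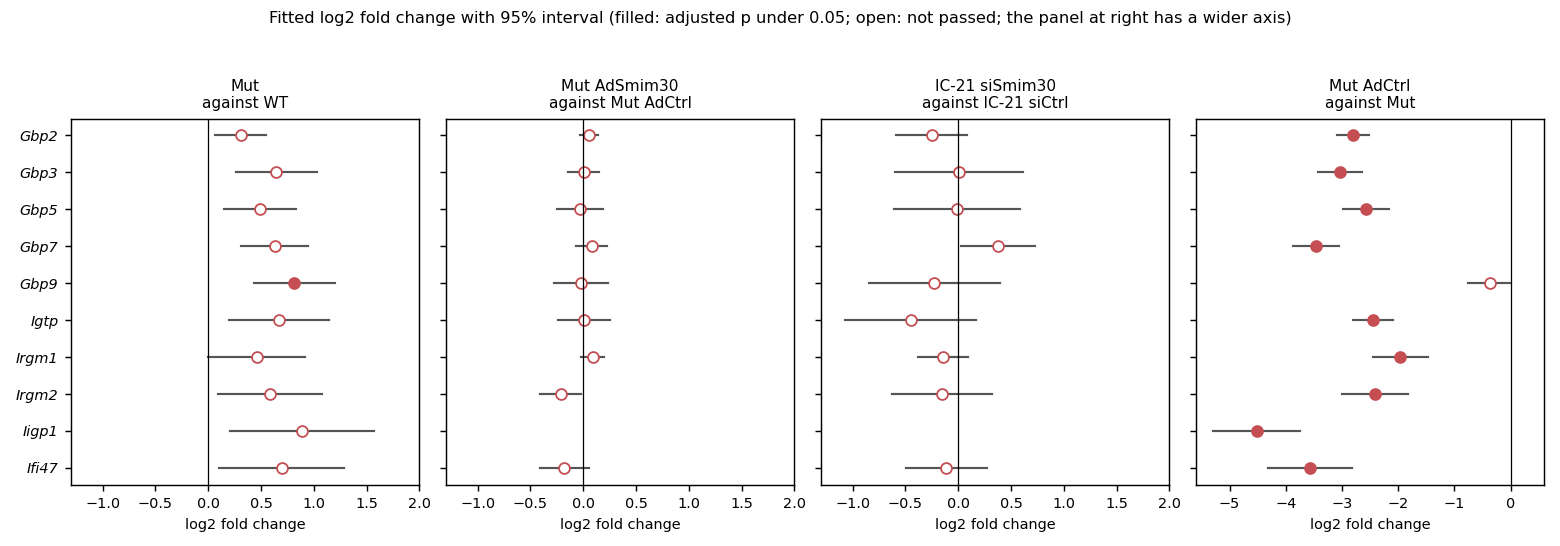
Fitted log2 fold changes of the members with 95% intervals in 4 comparisons; filled points passed at an adjusted p under 0.05. In Mut against WT all 10 lie right of 0 and Gbp9 alone is filled, in both other Smim30 comparisons none is filled, and in Mut AdCtrl against Mut 9 are filled and lie left of 0.

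**Figure D3:**
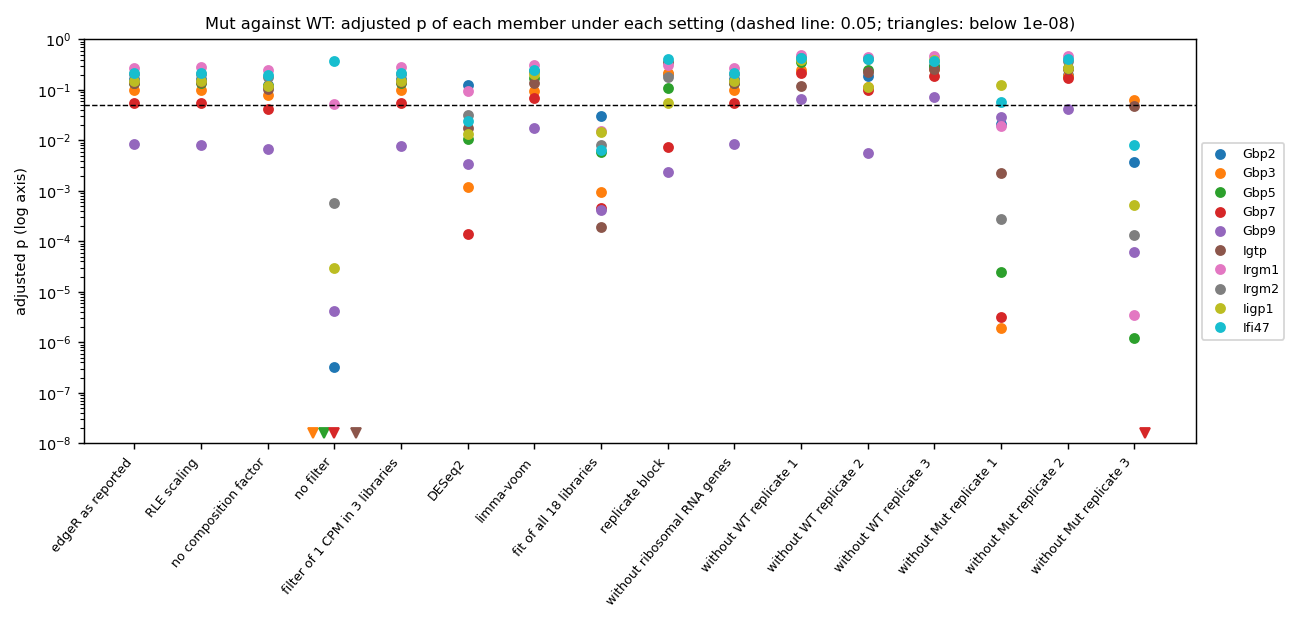
Adjusted p of each member for Mut against WT (log axis) in the edgeR fit as reported and in 15 alternatives; the dashed line is 0.05 and triangles are values below 1e-08. Most members lie below the line without Mut replicate 1 (8) or 3 (9), with DESeq2 (8) and with no filter (8), and all 10 do in the fit of all 18 libraries. Without WT replicate 1 or 3 Gbp9 also lies above the line.

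Interferon gamma itself was barely measurable. Ifng had 0 counts in all 3 WT libraries and 3, 9 and 4 counts in Mut, which is 0.548 CPM over the group and at least 5.32-fold above the WT floor of 0.103 CPM, set by 3 counts over the group. It was too low for the fit and at 0 in all 12 other libraries. Mut replicate 2 had the most Ifng counts and Mut replicate 1 the highest GTPases. Counts this low do not rank the libraries, and the part of Ifng in the result was not tested. T and NK cell markers, from cells that can make interferon gamma, summed to 0.117 to 0.425 CPM in WT and 0.222 to 0.408 in Mut over 10 genes. Of these, 6 were at 0 in each group. In WT they were Cd8a, Nkg7, Gzma, Cd3d, Klrb1c and Ncr1, and in Mut Trbc2, Cd3d, Cd3e, Cd3g, Klrb1c and Ncr1. Between WT and Mut, Cd8a, Nkg7 and Gzma thus had counts in Mut alone, and Trbc2, Cd3e and Cd3g in WT alone. Ifnb1, the type I interferon gene that LPS can induce, had 0, 1 and 2 counts in WT and 1, 0 and 0 in Mut.

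Several receptors, kinases and transcription factors upstream of the GTPases rose in Mut. The kinase Jak2 rose by 0.26 on the log2 scale (adjusted p = 0.00162), and the type I interferon receptor chain Ifnar1 by 0.23 (0.00177). The transcription factor Stat2 was at 159.5, 185 and 166 CPM in WT and at 264, 229.6 and 207 in Mut, a 1.36-fold rise (adjusted p = 0.0498). Its call was lost without WT replicate 1 (0.143), WT replicate 3 (0.192) or Mut replicate 2 (0.143) and with RLE scaling (0.0508). Stat2 had the same order in Mut as the GTPases, with replicate 1 highest and replicate 3 lowest. Irf1, a transcription factor for many of these genes, was at 615, 693 and 601 CPM in WT and 742, 682 and 649 in Mut, and the groups overlapped. Of 10 inhibitors of interferon signalling 3 rose and 0 fell: Socs3 1.49-fold (adjusted p = 2.81e-07), Socs1 1.69-fold (0.00447) and Irf2 1.18-fold (0.0147). The call of Irf2 was lost without WT replicate 3 (0.106) or Mut replicate 2 (0.0889).

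Other interferon-induced genes lay mostly on the same side. Of 13 tested genes among other GBP, IRG and large interferon-inducible GTPases 2 rose and 0 fell, with a median of 0.59. The GBP- or IRG-related gene 9930111J21Rik2 rose 1.73-fold (adjusted p = 0.00428) and the very large GTPase Gvin1 2.12-fold (0.0355). Gvin1 lost its call with DESeq2 (0.104), without Mut replicate 1 (0.174) or 2 (0.0769), and without WT replicate 1 (0.0939) or 3 (0.194). Of 16 interferon-gamma-type targets that are not GTPases, 7 rose and 0 fell (median 0.23), led by the adhesion molecule Icam1 at 1.28-fold (1.23e-06) and Cd40 at 1.78-fold (0.000328). Icam1, Cd40 and Cxcl10 kept their calls in all 15 alternatives, while those of Cd274, Psmb8, Psme1 and Tap2 were lost without WT replicate 1 (0.0509 to 0.182) and each also without at least 1 other single library. All 25 type I interferon targets had a positive log2 fold change (median 0.52), beside 6050 of all 12500 genes. Of these targets 7 rose, led by Rtp4 (6.62e-05) and Eif2ak2, the kinase PKR (0.000479). Rtp4, Eif2ak2, Ifi35 and Isg20 kept their calls in all 15 alternatives, while those of Isg15, Ifi44 and Parp14 were lost without WT replicate 1 (0.0798 to 0.242) or Mut replicate 2 (0.0839 to 0.145), among others. Genes that act with the GTPases showed no such shift in their medians. The autophagy conjugation genes that place these GTPases on vacuoles had a median of -0.04, with Gabarapl2 higher and Gabarapl1 lower of 15. Each of these calls was lost in 7 of 15 alternatives, that of Gabarapl2 without any single library (adjusted p of 0.052 to 0.205) and that of Gabarapl1 without WT replicate 2 or 3 or Mut replicate 1 or 2 (0.131 to 0.26). Of 6 genes of prenylation and CaaX processing 0 passed with edgeR, DESeq2 or limma-voom, 0 had an unadjusted p under 0.05, and the median was 0.03. Of 8 inflammasome components 1 rose, Il1b (adjusted p = 0.021), whose call was lost with the replicate block (0.143) and without any 1 library other than Mut replicate 3 (0.0554 to 0.109).

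**Figure D4:**
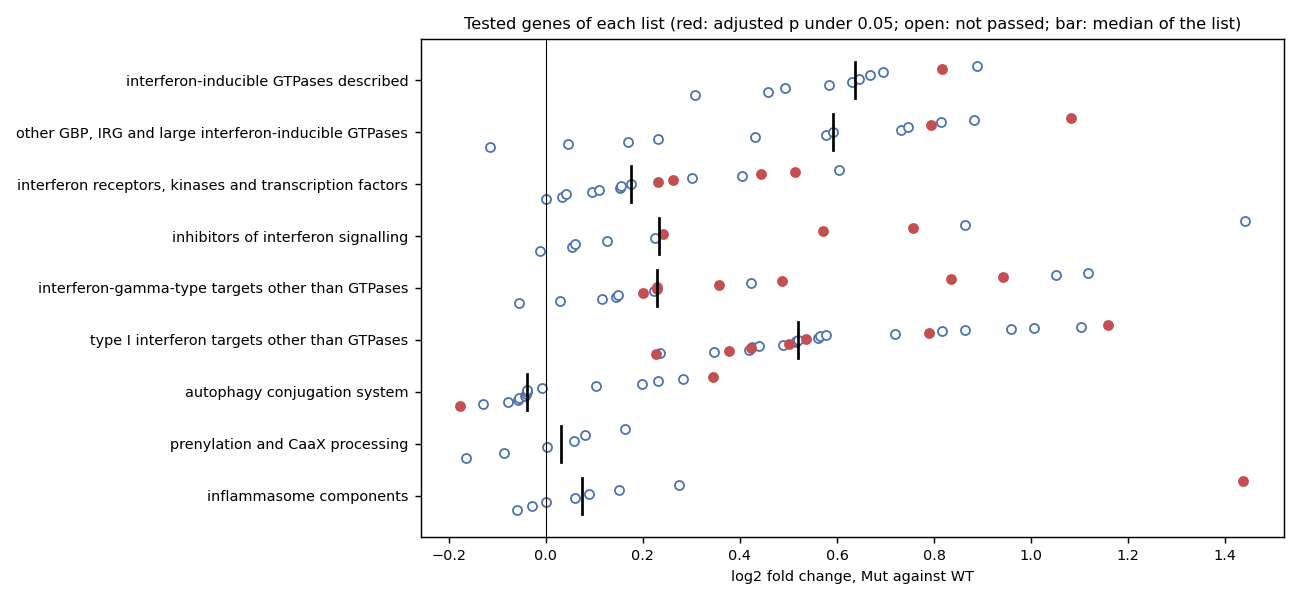
Log2 fold change in Mut against WT of each tested gene in 9 lists, with red points for an adjusted p under 0.05 and a bar at each list's median. The GTPases (median 0.64), the other GTPases (0.59) and the type I targets (0.52) lie farthest right, and the autophagy, prenylation and inflammasome lists have medians near 0.

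The virus comparison asks what Smim30 overexpression does in Mut cells. The counts of Smim30 itself were only 1.21-fold higher with the Smim30 virus (log2 0.28, adjusted p = 0.0052, edgeR). That call was lost in 4 of 15 alternatives. The insert is not given, so these counts may not show how much Smim30 was overexpressed. The 9 members tested differed little between Mut AdSmim30 and Mut AdCtrl. None passed, where 1.43% of 12701 genes did (edgeR; DESeq2 and limma-voom also called 0). Both groups overlapped for all 9, while for 6.99% of all genes they lay apart with Mut AdSmim30 higher and for 8.06% with it lower. At an unadjusted p under 0.05 there was 1, Irgm2, beside 10.5% of all genes. The median log2 fold change was 0.0037 and the range -0.22 to 0.09. Gbp2 was at 151, 140 and 136 CPM with the control virus and at 140, 157 and 144 with the Smim30 virus, a log2 fold change of 0.05 with a 95% interval of -0.03 to 0.14. Gbp5 was at 149, 132 and 136 CPM and at 121, 150.1 and 135, a difference of -0.03 (95% interval -0.25 to 0.19). Gbp9 had a difference of -0.02 (95% interval -0.28 to 0.24), and Irgm1 one of 0.09 (-0.02 to 0.20). Irgm2 was at 21.1, 19.0 and 21.7 CPM with the control virus and at 16.2, 17.1 and 19.6 with the Smim30 virus. The groups overlapped by the highest and the lowest library, and its log2 fold change was -0.22 (95% interval -0.41 to -0.02, adjusted p = 0.402). Iigp1 had 16 counts over Mut AdCtrl and 22 over Mut AdSmim30 and was too low to test. Of the related lists, 0 of 8 other GTPases, 0 of 15 receptors, kinases and transcription factors and 0 of 25 type I targets passed with edgeR, DESeq2 or limma-voom, with 0, 0 and 2 at an unadjusted p under 0.05. The chemokine gene Cxcl10 was the single called gene among 15 interferon-gamma-type targets (log2 fold change -0.46, adjusted p = 0.0122). Its call was lost without Mut AdCtrl replicate 1 (0.341) or 2 (0.0632), without Mut AdSmim30 replicate 1 (0.108) or 3 (0.131), with DESeq2 (0.155) and in the fit of all 18 libraries (0.509). In these libraries 6 of 6 tested mesothelial and fibroblast markers were lower with the Smim30 virus, their 9 genes summing to 91.4 to 112 CPM and to 50.3 to 57.2 CPM, with Krt19 and Msln at 0 in the latter; their part in the result was not tested.

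Knockdown of Smim30 in IC-21 was compared with control siRNA. None of the 9 members tested passed (3.48% of 13576 genes did; DESeq2 and limma-voom also called 0 members), and 1, Gbp7, had an unadjusted p under 0.05, beside 14.2% of all genes. The median log2 fold change was -0.14. Gbp7 was at 7.58, 7.17 and 5.90 CPM with control siRNA and at 10.9, 8.08 and 7.48 with Smim30 siRNA, so that the groups overlapped (log2 fold change 0.38, 95% interval 0.03 to 0.73, adjusted p = 0.295). Igtp was at 2.63, 2.50 and 3.01 CPM and at 2.03, 1.71 and 2.14. All 3 Igtp values were lower with Smim30 siRNA, as were those of 11.2% of all genes, and the log2 fold change was -0.45 (95% interval -1.07 to 0.17, adjusted p = 0.563). Gbp2 was at 8.61, 8.34 and 10.5 CPM and at 8.60, 7.51 and 6.55, with a log2 fold change of -0.25 (95% interval -0.58 to 0.08). The other 6 ranged from -0.23 to 0.0081. Apart from Gbp2, Gbp7, Irgm1 and Ifi47, each tested member had 12 to 56 counts per library. The log2 fold change seen in Mut lay within the 95% interval of the siRNA comparison for Gbp5 and Gbp7 and above it for the other 7. This leaves out the error of the Mut value. The edgeR model of both effects, given below, includes it and called 0 members. Iigp1 had 0 counts in all 6 IC-21 libraries. In the pathway, Socs3 rose 1.44-fold (adjusted p = 9.53e-07), its relative Cish 1.37-fold (0.00551) and the interferon gamma receptor chain Ifngr1 1.18-fold (0.0256), while Tapbp, of the peptide loading complex, fell (log2 -0.13, adjusted p = 0.0343), as did Parp14 (-0.18, 0.0484). Of the interferon-gamma-type targets 2 of 14 and of the type I targets 4 of 16 had a positive log2 fold change, beside 6683 of all 13576 genes. The medians of these lists were small, at -0.0857 and -0.101, and 1 gene of each passed. The calls of Tapbp and Parp14 were lost in 6 and 8 of 15 alternatives. Among other GTPases 0 of 5 passed with edgeR, DESeq2 or limma-voom and 0 had an unadjusted p under 0.05. The call of Cish was lost without IC-21 siCtrl replicate 1 or IC-21 siSmim30 replicate 1 or 2 (0.0529 to 0.0791) and in the fit of all 18 libraries (0.437). That of Ifngr1 was lost with DESeq2 (0.0848) and without IC-21 siCtrl replicate 2 or 3 or IC-21 siSmim30 replicate 1 or 3 (0.0591 to 0.148).

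The effect of the Mut genotype in primary cells and that of Smim30 siRNA in IC-21 were compared in 1 model of 12 libraries. The mutation effect minus the siRNA effect was positive for all 9 members with an estimate, from 0.25 to 1.12 on the log2 scale, and 0 passed, beside 2.51% of 14804 genes. It was 1.12 for Igtp (95% interval 0.33 to 1.91, adjusted p = 0.15) and 1.05 for Gbp9 (0.35 to 1.75, adjusted p = 0.106), and with Gbp2 these were the 3 members with an unadjusted p under 0.05, beside 13.3% of all genes. The count was 4 without Mut replicate 3, 1 without Mut replicate 1, 4 with no filter, 1 with DESeq2 and 0 with limma-voom. Of the related lists, 7 of 16 interferon-gamma-type targets and 3 of 25 type I targets passed as higher in this contrast (edgeR). None of either list passed as lower, and 0 of 14 other GTPases passed. The calls of Psmb9, Psmb10, Dhx58 and Parp14 were lost with limma-voom. The sum of the mutation and the overexpression effects, which would be 0 if overexpression offset the mutation exactly, was positive for all 10 members. None passed, beside 5.23% of 13422 genes, and 7 had an unadjusted p under 0.05, beside 17.3% of all genes. The overexpression effect was measured from Mut AdCtrl, where all members but Gbp9 were at 8.05 to 36.2% of the WT mean. Its median over the members tested was 0.0037, so the sum is largely the mutation effect. The sign of the sum thus does not show whether overexpression can offset the mutation. The smallest adjusted p were 0.0606 for Gbp9 (0.79, 95% interval 0.29 to 1.30) and 0.0615 for Gbp7 (0.71, 95% interval 0.30 to 1.12). Here 4 members passed with DESeq2, with no filter, without Mut replicate 1 and without Mut replicate 3, 3 in the fit of all 18 libraries, 1 without WT replicate 2 or Mut AdCtrl replicate 2, and 0 with limma-voom. For the sum, 4 of 16 interferon-gamma-type targets, 2 of 25 type I targets and 1 of 15 other GTPases passed as higher and 0 as lower (edgeR).

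Mut AdCtrl was set against Mut to show the level from which the overexpression started. The GTPases were far lower with the control virus: 9 of 10 fell, with log2 fold changes of -4.52 to -1.97, where 26.5% of 12798 genes fell. Control virus, a longer time in culture and the part of the series cannot be told apart in this comparison, and it shares the Mut libraries with that against WT. Iigp1 fell most, from 16.4, 10.1 and 7.76 CPM to 0.570, 0.290 and 0.590, the latter 3 to 7 counts per library (log2 -4.52, SE 0.37, adjusted p = 1.02e-08). Ifi47 fell from 218, 172 and 133 CPM to 16.8, 13.7 and 13.96 (log2 -3.57, SE 0.28, adjusted p = 0.000462). Gbp7 fell to 36.0, 30.8 and 33.7 CPM (log2 -3.46), Gbp3 to 37.1, 39.4 and 35.6 (-3.04) and Gbp2 to 151, 140 and 136 (-2.80). Irgm1 fell least of the 9, to 61.3, 60.2 and 59.5 CPM (log2 -1.97, SE 0.18, adjusted p = 0.000813).

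Gbp9 was the exception. It was at 11.9, 13.3 and 9.54 CPM in Mut AdCtrl, which overlapped the 19.4, 14.1 and 11.5 CPM of Mut, and its log2 fold change was -0.38 (SE 0.18, adjusted p = 0.0863). It passed, as lower, in 5 of 15 alternatives, among them without Mut replicate 3 (0.00356) and without Mut AdCtrl replicate 2 (0.0464), and its adjusted p ran from 0.00356 to 0.419 over them. As a share of the WT mean, Gbp9 was at 138% in Mut AdCtrl, while the other 9 were at 8.05 to 36.2%. Among the other GTPases 10 of 13 fell, and 9930111J21Rik1 and 9930111J21Rik2, named after their values were seen, rose (adjusted p = 3.47e-05 and 0.000907). Of the type I targets 24 of 25 fell and of the interferon-gamma-type targets 15 of 16. On the log2 scale Stat2 fell by 1.83 (adjusted p = 2.44e-08) and Socs1 fell by 3.32 (3.40e-16), while Ifngr1 rose (log2 1.32). Markers of large peritoneal macrophages summed to 1038 to 1096 CPM in Mut AdCtrl and 284 to 299 in Mut. Cd93 made up most of that sum (means of 1051 and 276 CPM), and of the 5 markers tested 2 rose, Cd93 and Icam2, 2 fell, Timd4 and Prg4, and Gata6 did not pass (log2 0.00059). The mesothelial and fibroblast markers summed to 91.4 to 112 CPM in Mut AdCtrl and 205 to 242 in Mut, and the part of either list in the result was not tested.

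IC-21 with control siRNA was set against WT macrophages to place the levels of the line, where line, transfection and part of the series cannot be told apart. All 10 members were lower in IC-21, with a median log2 fold change of -5.29, and 40.2% of 14066 genes fell. Gbp5 fell most among members with counts in the line, from 552, 585 and 581 CPM to 3.36, 2.42 and 2.20, or 0.464% of the WT mean (log2 -8.49, SE 0.08, adjusted p = 1.92e-51). Gbp2 was at 1.17% and Gbp3 at 1.29% of WT, Gbp7 at 2.98%, Ifi47 at 5.87%, Irgm2 at 6.12%, Igtp at 6.67% and Irgm1 at 10.2%. Gbp9 kept the most, at 2.48, 2.67 and 2.78 CPM or 31.5% of WT (log2 -2.34, SE 0.21, adjusted p = 9.03e-14). Iigp1, at 0 counts, was at least 55-fold lower than in WT, against a floor of 0.109 CPM from 3 counts over the group. The fold changes depend on scaling here: with no composition factor the median over all genes was 0.72 and that of the members -4.58, all 10 were still lower, and the split of called genes was 9176 higher and 3031 lower, beside 5645 and 5654 with TMM scaling (trimmed mean of M-values). On the TMM scale all 15 receptors, kinases and transcription factors tested were lower too, with Irf1 at 31.6, 29.9 and 33.9 CPM. Irf8 was not lower in CPM (mean 109.5 in WT and 112.4 in IC-21), and its call was lost with no composition factor (adjusted p = 0.542). Of 13 other GTPases 11 were lower, led by Mx1, Mx2, Gm5431 and Gbp6, and Gbp8, named after its values were seen, was higher, at 2.33, 2.84 and 2.31 CPM beside 1 to 2 counts per WT library.

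**Figure D5:**
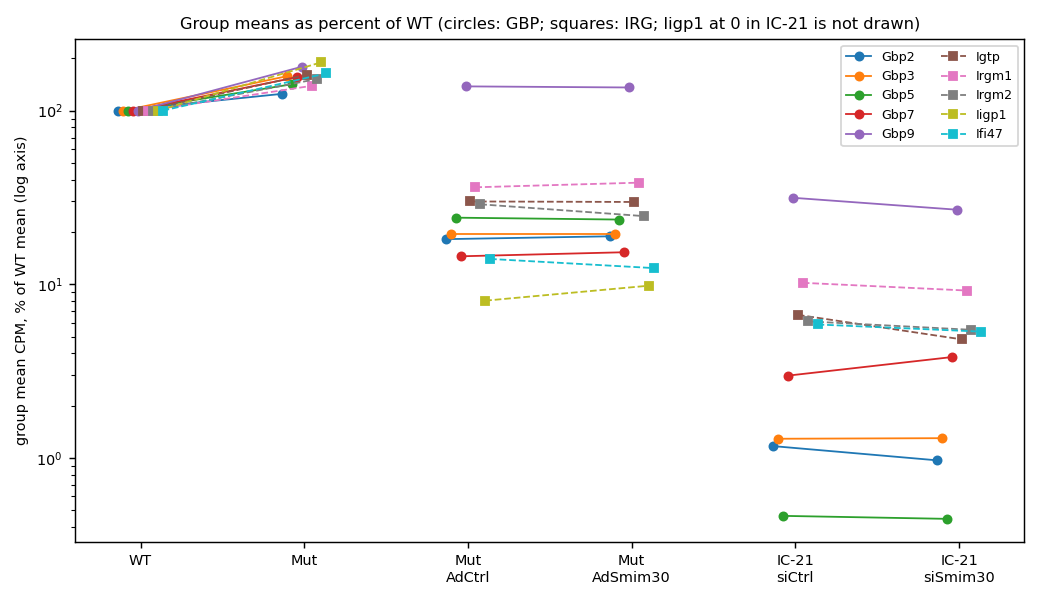
Group mean CPM of each member as a percentage of its WT mean (log axis), with circles for guanylate-binding proteins, squares for immunity-related GTPases and lines joining the 2 groups of each part of the series. Gbp9 stays at 138 and 136% in the virus groups and is highest in IC-21 at 31.5 and 26.9%, while Gbp5 falls to 0.464 and 0.446% there.

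Across all 18 libraries the log2 CPM of pairs of members correlated with Pearson's r of 0.752 to 0.997 (median 0.976, 45 pairs), as a description, since the libraries share the 6 groups. The genes most like the mean of the 10 were Parp9 (r = 0.999), Usb1, Trim30d and Tap2 (0.998) and Parp12 and Uba7 (0.997). With each group's mean taken away, pairs of members had r of -0.197 to 0.86 (median 0.445). The genes most like the members were then Mx1 (0.937), Ifit2 (0.932), Usp18 (0.896), Pnp (0.878), Gnb4 (0.868) and Exoc2 (0.866). Mx1, an interferon-induced antiviral GTPase, was at 43.5, 51.3 and 46.5 CPM in WT and at 121, 81.8 and 62.6 in Mut, in the same order over the Mut libraries as the 10 members.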

How the data were processed

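RNA of 18 libraries was counted. The authors deposited unnormalized counts per gene: featureCounts 2.0.3 had assigned read pairs to GENCODE M25 exons with reverse strandedness, per the file headers. Reads had been processed with fastp, FastQC and HISAT2, per the submitters' processing notes. Symbols came from GENCODE M21 by identifier (55141 matched, 260 did not). Samples were taken from the file records; the number in the name and in the header differed for all 18 files. Every comparison used the libraries of its groups only, in edgeR 4.0.16 under R 4.3.3. Settings were filterByExpr, TMM, robust quasi-likelihood F test, Benjamini-Hochberg adjustment and a call at 0.05. The test was also run on simulated counts drawn separately for each gene, so a spread shared by genes was not covered. Intervals are 95% intervals and not adjusted. CPM shown is on each library's own total, so it differs from the fitted TMM scale, most in IC-21. Exact permutation of 3 against 3 cannot give a p-value below 0.1 and was not used. The members, gene lists and tests were chosen with earlier results of these data known. Named genes are the 10 members, up to 4 called genes per list by adjusted p, Ifng, Ifnb1 and Irf1, and the 6 genes most like the members. This rule was not carried through for every list and comparison. Called genes left unnamed include Sqstm1 with the Smim30 virus and Map1lc3b with Smim30 siRNA. Alternatives were: no composition factor or RLE scaling, no filter or 1 CPM in 3 libraries, DESeq2 1.42.0, limma-voom (limma 3.58.1), a fit of all 18 libraries, replicate block, leaving out each library and, added after seeing the data, leaving out ribosomal RNA genes. A further gene named by that rule is not reported here.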

Additional observations from a re-analysis of the deposited data

How the results depend on the processing

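For single members no direction of a called value reversed. Of 150 member results for Mut against WT 108 kept their side of the threshold, 40 came to pass and 2 no longer passed; for Mut AdCtrl against Mut it was 145 and 5, and all others of the 5 comparisons kept theirs. Members called in Mut against WT numbered 1, 2 with no composition factor, 8 with no filter, 8 with DESeq2, 10 in the fit of all 18 libraries, 2 with the replicate block, and 0 to 9 with 1 library left out. For the mutation effect minus the siRNA effect the count of 0 became 4 with no filter, 1 with DESeq2 and 0 to 4 with a library left out. For the sum of effects it became 1 with no composition factor, 4 with no filter, 4 with DESeq2, 3 in the fit of all 18, 1 with the replicate block and 0 to 4 with a library left out. Members called in Mut AdCtrl against Mut were 9 to 10 with a library left out. Over all genes, the 788 calls of Mut against WT became 1198 in the fit of all 18 and 469 to 957 with a library left out; the 181 of the virus comparison became 68 with DESeq2, 87 in the fit of all 18 and 66 to 453; the 472 of the siRNA comparison became 296 with DESeq2, 263 in the fit of all 18 and 309 to 422. The cause of these shifts was not tested. Same-numbered libraries of Mut and WT had deviations that correlated at 0.0365, -0.0337 and 0.0893, so the numbers were not taken as pairs; with the replicate block 782, 253 and 546 genes were called in the 3 Smim30 comparisons. Depth limits Gbp9, Iigp1 and the IC-21 values most.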
